A study of Homo sapiens with 60 samples.

Results

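The comparison set 3 libraries of SW1783 cells given 500 µg/mL of a hot water extract of Longan Arillus against 3 libraries given 20 µg/mL of the same extract. These 6 libraries, chosen by their treatment labels, are 6 of the 60 in the series, and every gene that passed a filter on low counts (17063 genes) was compared. SW1783 is an established human astrocytoma line, grown in L-15, a medium that carries galactose in place of glucose, and all cells were harvested 24 h after the addition. Longan Arillus is the dried fruit flesh of the longan tree. Beside the high and low dose, a medium dose of 100 µg/mL (3 libraries), the same 3 doses of a water extract of Zizyphi Semen, the seed of a jujube (9 libraries), and a vehicle group labelled 0.1% DMSO (3 libraries) were used here. The series description gives 2% DMSO for the vehicle, and the labels give no DMSO content for the extracts. All Longan and Zizyphi libraries carry names that begin with 3, whereas vehicle names begin with A1, so this set, the solvent and the treatment cannot be told apart in a comparison with vehicle. Whether the 3 replicates were cultured separately is not stated in the labels, so the p-values measure the spread between libraries, which may be technical.

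Several pathways that respond to nutrients and protein load bear on this comparison. MondoA and ChREBP are transcription factors that are retained in an inactive state until hexose phosphates build up, and with their partner MLX they then switch on TXNIP and ARRDC4, a pair of arrestin family members that curb glucose uptake. The unfolded protein response senses the load of protein to be folded in the endoplasmic reticulum and sets the level of its chaperones, of which HSPA5 (BiP) is the best known. ATF4 drives amino acid transport and synthesis genes when amino acids are short or protein folding is disturbed.

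The promoters of TXNIP, ARRDC4 and HSPA5 are shown because these genes gave the most pronounced rise among genes with at least 5 CPM (counts scaled to a library total of 1e+06), the other 2-fold rise of the same family and the strongest call among the genes of the unfolded protein response. Each sequence holds the 250 bases before the RefSeq start site (build GRCh38.p14), 5′ to 3′ on the gene's strand. TXNIP lies at chr1:145996580-145996829 on the minus strand, ARRDC4 at chr15:97960453-97960702 on the plus strand and HSPA5 at chr9:125241344-125241593 on the minus strand.
TXNIP: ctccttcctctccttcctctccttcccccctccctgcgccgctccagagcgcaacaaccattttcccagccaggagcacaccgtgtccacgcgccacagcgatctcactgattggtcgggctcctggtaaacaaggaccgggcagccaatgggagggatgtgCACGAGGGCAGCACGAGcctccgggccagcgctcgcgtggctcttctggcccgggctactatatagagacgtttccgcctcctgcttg
ARRDC4: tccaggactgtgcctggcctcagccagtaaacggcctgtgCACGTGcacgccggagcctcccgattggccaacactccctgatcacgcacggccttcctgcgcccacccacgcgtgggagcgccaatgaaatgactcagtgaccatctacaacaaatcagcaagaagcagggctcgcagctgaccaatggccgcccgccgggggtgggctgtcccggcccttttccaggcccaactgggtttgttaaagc
HSPA5: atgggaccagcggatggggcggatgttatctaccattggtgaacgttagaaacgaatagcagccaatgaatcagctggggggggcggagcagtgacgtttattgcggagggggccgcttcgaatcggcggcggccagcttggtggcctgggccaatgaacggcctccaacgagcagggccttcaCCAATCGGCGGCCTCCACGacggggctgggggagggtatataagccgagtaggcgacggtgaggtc
Capitals mark a paired E-box-like motif in TXNIP (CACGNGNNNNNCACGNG, known as a carbohydrate response element), an E-box in ARRDC4 (CACGTG) and an endoplasmic reticulum stress response element in HSPA5 (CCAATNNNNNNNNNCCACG). Both strands were searched, and the E-box is 1 of the forms that each side of the paired motif can take, so these searches overlap. Among all 35116 RefSeq promoter windows of this length, 16 (0.0456%) held the paired motif, 2228 (6.34%) the E-box and 26 (0.074%) the stress response element. Of the 19 listed genes of the unfolded protein response, 18 had a window and 7 of these (38.9%) held the stress response element: CALR, CANX, CRELD2, HSP90B1, HSPA5, PDIA6 and XBP1. Of 12 listed Mondo factors and targets, 11 had a window. TXNIP alone of these held the paired motif, and ARRDC4, G6PC3, MLX and PKLR held the E-box. A listed gene was counted if any of its windows matched, whereas the shares over all windows count each window singly. The shares of the lists and of all windows are therefore in unlike units. A match describes the letters only and does not show that a factor binds there.

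The 60 libraries held 9.34 M to 35.35 M expected counts (M, counts in units of 1e+06), the 3 high dose libraries 35.35 M, 23.92 M and 31.96 M and the 3 low dose libraries 22.2 M, 29.17 M and 32.35 M. Mitochondrially encoded genes took 9.38% to 10.08% of counts at the high dose and 8.69% to 10.09% at the low dose. The mean correlation of a library with the others of its group was at least 0.9907 in all 21 libraries of the fit. The astrocyte label was checked against 12 markers: VIM, CD44 and CHI3L1 were among the abundant ones, whereas GFAP, S100B, ALDH1L1 and AQP4 were below the filter and AQP4 was at 0 in every vehicle, low and high dose library. All 9 mesenchymal markers listed had a mean of at least 1 CPM, with COL1A1 at 3547 CPM at the low dose.

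At the high dose 216 of 17063 genes differed from the low dose (1.27%), of which 90 were higher (0.527%) and 126 lower (0.738%), by edgeR's quasi-likelihood test with Benjamini-Hochberg adjustment at a threshold of 0.05. Most differences were small: the median size among called genes was 0.27 on the log2 scale (quartiles 0.22 and 0.35), and 7 genes differed 2-fold or more. The libraries of both doses did not overlap in 214 of the 216, and they did not overlap in 19.7% of all genes tested (9.29% with the high dose above and 10.4% with it below). TXNIP and ARRDC4 were the genes with a symbol and at least 5 CPM that rose 2-fold or more, together with the small RNA BCYRN1. The other 4 past 2-fold, chosen after their values were seen, were 3 identifiers without a symbol and TGFB2-OT1. The most abundant of these identifiers fell from a mean of 20 CPM at the low dose to 5.06 CPM at the high dose (log2 -1.98, edgeR adjusted p = 0.0049). Another fell from 2.84 to 0.58 CPM (log2 -2.31, edgeR adjusted p = 0.043), and the last rose from 0.17 to 0.614 CPM (log2 1.77, edgeR adjusted p = 0.0092). TGFB2-OT1 had 1 count in the low dose libraries together and 49 in the high dose libraries. The number of calls fell to 67 without Longan low replicate 1, 88 without Longan high replicate 1, 112 without Longan low replicate 2, 124 without Longan high replicate 3 and 133 without Longan low replicate 3. In a fit of all 60 libraries 44 genes were called, and 329 when 1 Liriopis library outside the groups described here was left out of that fit. Of 63 named genes with a call, 14 kept it under every alternative that gave an adjusted p, TXNIP, HSPA5 and FAM13B among them, 28 kept it when each of the 6 libraries was left out in turn, and none changed direction. DESeq2's filter on low means left 7275 of the 17063 genes without an adjusted p. These included 14 of the 63 named genes with a call, and 2 of those that kept it elsewhere, ARRDC4 and CXCL8, so DESeq2 gave no call either way for them.

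**Figure D1:**
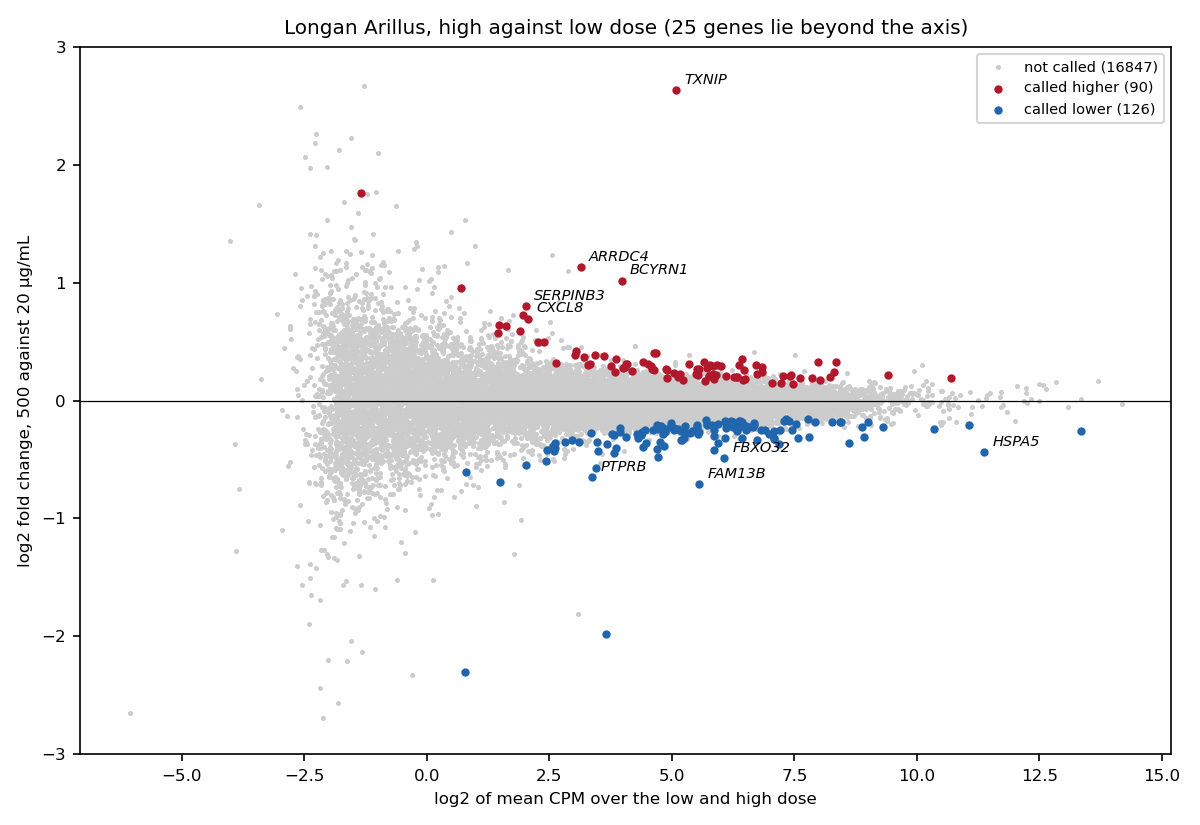
Log2 fold change of the high (500 µg/mL) over the low dose (20 µg/mL) for each gene against the log2 of its mean CPM over both doses. The 90 genes called higher are red, the 126 called lower blue and the others grey, and TXNIP is labelled at 2.63. The axis ends at 3, and 25 genes beyond it are not drawn, among them the called TGFB2-OT1 at 5.05.

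TXNIP, which binds thioredoxin and curbs glucose uptake, rose most among genes with at least 5 CPM. Its level was 59.7, 60.6 and 55 CPM in the high dose libraries and 9.26, 10.7 and 8.32 CPM in the low dose libraries. The high dose libraries lay far above all others: the medium dose gave 10.9, 11.3 and 10.5 CPM and vehicle 10.2, 9.72 and 9.87 CPM. The means were 58.5 ± 2.99 and 9.44 ± 1.22 CPM (SD, n = 3), a 6.19-fold difference (log2 2.63, SE 0.07, edgeR adjusted p = 3.9e-17). In bulk libraries a level raised in every cell and a larger share of cells with a high level cannot be told apart. Between the medium and low dose the log2 difference was 0.21 (SE 0.08, edgeR adjusted p = 1). TXNIP lies on chromosome 1 at 145992435 to 145996600 (GRCh38, minus strand).

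ARRDC4, an arrestin family member related to TXNIP, was the other gene of the Mondo list to rise. Its high dose libraries held 11.4, 12.5 and 12.3 CPM and its low dose libraries 6.16, 5.44 and 5.02 CPM. The difference was 2.19-fold (log2 1.13, SE 0.11, edgeR adjusted p = 3.6e-06), and the medium dose (6.25, 5.76 and 5.41 CPM) overlapped the low dose. DESeq2 gave ARRDC4 a log2 difference of 1.13 and an unadjusted p of 4.5e-18 but no adjusted p. ARRDC4 lies on chromosome 15 at 97960698 to 97973838 (plus strand). Of 12 listed Mondo factors and targets 9 were tested, and 2 rose and 0 fell, where 0.527% of all genes rose. The list had a median log2 difference of 0.05 against 0.001 for all genes, and DESeq2 called TXNIP alone. The remaining 7 were ARRDC2, ARRDC3, HBP1, KLF10, G6PC3, MLX and MLXIP, with log2 differences from -0.10 to 0.09. MLXIP, which encodes MondoA itself, was at -0.10 (SE 0.06, adjusted p = 0.41) and its partner MLX at 0.05 (SE 0.05, adjusted p = 0.73).

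Genes that take up and use hexoses did not pass the test. Of 32 tested genes of glucose and fructose uptake and glycolysis edgeR called 0 (median log2 difference 0.02, 5 at an unadjusted p under 0.05, 0 called by DESeq2). Of 8 genes of galactose entry it also called 0 (median -0.05, 1 at an unadjusted p under 0.05, 0 by DESeq2), and of 7 of the pentose phosphate pathway 0 (median 0.07, 2 at an unadjusted p under 0.05, TKT by DESeq2). The main glucose transporter gene SLC2A1 was at 186, 176 and 174 CPM at the high dose and 188, 196 and 188 CPM at the low dose (log2 -0.10, SE 0.04, edgeR adjusted p = 0.27). HK2, a hexokinase, was at 52.8 ± 1.95 and 55.4 ± 2.93 CPM (SD, n = 3), and GALK1, which phosphorylates galactose, at 17.5 ± 0.699 and 15.3 ± 1.33 CPM. Their adjusted p-values from edgeR were 0.51 and 0.3. PDK4, a kinase that slows pyruvate oxidation, stayed below 1 CPM in all 6 libraries.

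Of 19 tested genes of the unfolded protein response, chaperones of the endoplasmic reticulum among them, 9 fell and 0 rose, where 0.738% of all genes fell. The median log2 difference of the list was -0.18 (range -0.44 to 0.15), against 0.001 for all genes, and 17 of 19 lay below 0. HSPA5, the main chaperone of this compartment, was at 2203, 2191 and 2374 CPM in the high dose libraries and 3084, 2934 and 3138 CPM in the low dose libraries. All 3 high dose libraries lay below all 3 low dose libraries, and the level was 0.739 of that at the low dose (log2 -0.44, SE 0.04, edgeR adjusted p = 7.1e-06). HSPA5 lies on chromosome 9 at 125234853 to 125241330 (minus strand).

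MANF, a small secreted protein of the same response, was at 123, 111 and 126 CPM against 149, 146 and 157 CPM (log2 -0.33, SE 0.05, edgeR adjusted p = 0.0015). HSP90B1 (GRP94), a chaperone of secreted and membrane proteins, was at 1168, 1198 and 1227 CPM against 1433, 1362 and 1456 CPM (log2 -0.24, SE 0.04, edgeR adjusted p = 0.0012). HYOU1, which serves as an exchange factor for HSPA5, was at 433, 432 and 435 CPM against 502, 499 and 516 CPM (log2 -0.22, SE 0.03, edgeR adjusted p = 0.0012). In each of these genes both doses stood apart. The other 5 called members, named after their values were seen, were the disulfide isomerases PDIA4 (log2 -0.23) and PDIA6 (-0.18), the lectin chaperone CANX (-0.21), and HERPUD1 (-0.23) and SEL1L (-0.31), both of which serve the disposal of misfolded proteins. The transcription factor XBP1 was at 0.06 (SE 0.04, adjusted p = 0.47) and the sensor ERN1 at 0.15 (SE 0.06, adjusted p = 0.21). The count of called members was 5 without Longan low replicate 1, with the calls of CANX, HERPUD1, PDIA6 and SEL1L lost. CANX and SEL1L were also lost without Longan high replicate 1, and PDIA6 and SEL1L without Longan high replicate 3. It was 3 in the fit of all 60 libraries, 6 with only both groups fitted and 12 by DESeq2.

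**Figure D2:**
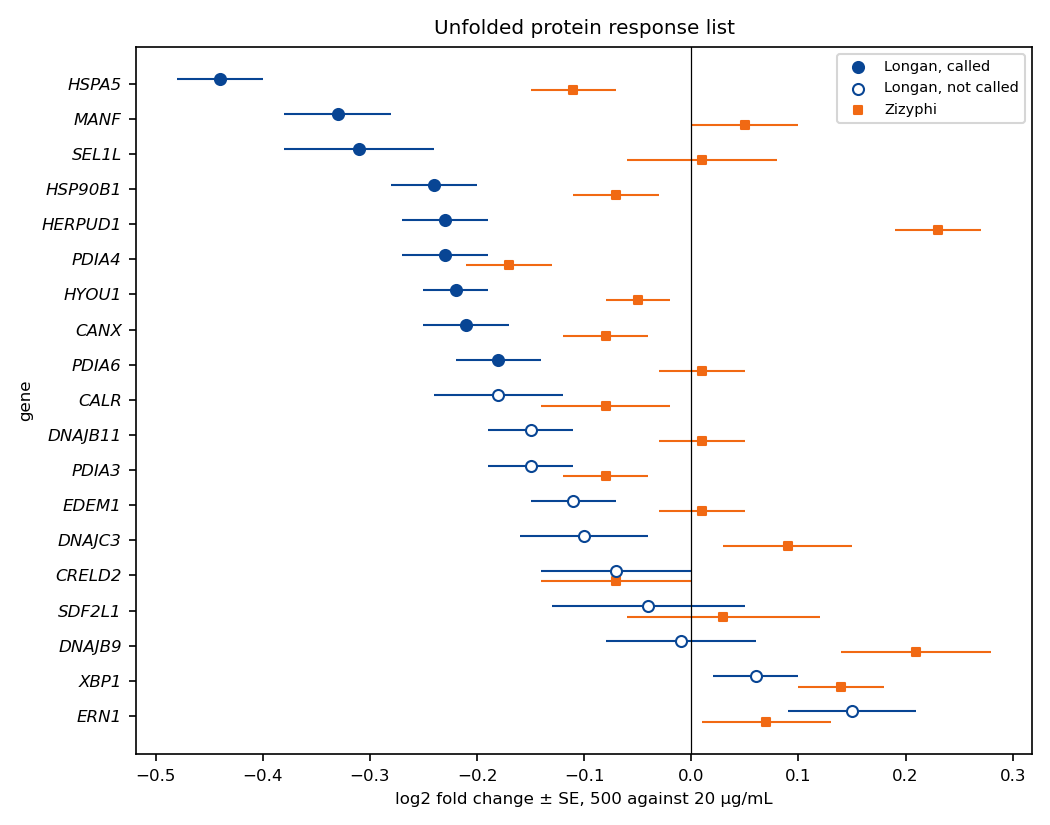
Log2 difference between the high and low dose with its SE for the 19 tested genes of the unfolded protein response, for Longan Arillus and for Zizyphi Semen. The Longan values lie below 0 in 17 genes with HSPA5 lowest at -0.44, whereas the Zizyphi values lie on both sides of 0 between -0.17 and 0.23.

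A few genes of amino acid transport, synthesis and charging fell. Of 29 tested ATF4 targets 3 fell and 0 rose (median log2 difference -0.09), and of 17 cytoplasmic tRNA synthetases 3 fell and 0 rose (median -0.04). Over all genes tested 0.738% fell and 0.527% rose. SLC7A5, a transporter of large neutral amino acids, was at 171, 171 and 163 CPM in the high dose libraries and 218, 213 and 201 CPM in the low dose libraries, with no overlap (log2 -0.32, SE 0.04, edgeR adjusted p = 0.00022). AARS1, the alanyl-tRNA synthetase, was at 174, 172 and 173 CPM against 191, 199 and 206 CPM (log2 -0.20, SE 0.04, edgeR adjusted p = 0.0062). The transporter SLC1A4 (log2 -0.23), the serine synthesis enzyme PSAT1 (-0.20) and the synthetases IARS1 (-0.18) and WARS1 (-0.16) were also called. ATF4 itself was at -0.06 (SE 0.04, adjusted p = 0.52). The call of SLC1A4 was lost without any 1 of the 6 libraries, those of PSAT1 and WARS1 without any but Longan high replicate 2, and that of IARS1 without Longan low or Longan high replicate 1. In the fit of all 60 libraries 0 members of either list were called lower, and DESeq2 called 5 in each.

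Genes of secreted inflammatory signals and of growth factor signalling were among those that rose. Of 21 tested genes of NF-kB signalling and inflammatory cytokines 3 rose and 0 fell (median 0.10), where 0.527% of all genes rose. DESeq2 called 2 of the 3, LIF and PTGS2. CXCL8, the neutrophil chemokine interleukin-8, was at 5.41, 5.5 and 4.47 CPM against 3.28, 3.32 and 2.91 CPM (log2 0.70, SE 0.11, edgeR adjusted p = 0.0024). DESeq2 gave it an unadjusted p of 7.6e-06 and no adjusted p. LIF, a cytokine of the interleukin-6 family, was at 29.4, 28.7 and 29.2 CPM against 20.7, 23.4 and 21.8 CPM (log2 0.40, SE 0.06, edgeR adjusted p = 0.0012). High and low dose libraries did not overlap in either gene. PTGS2, the inducible cyclooxygenase, rose by 0.35 on the log2 scale (SE 0.06, edgeR adjusted p = 0.0027). The inhibitor gene NFKBIA was at 0.11 (adjusted p = 0.41), the cytokine IL6 at -0.03 (adjusted p = 0.96), and 0 of 23 interferon-stimulated genes were called by edgeR or DESeq2 (0 at an unadjusted p under 0.05).

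Of 13 genes that feed back on the ERK pathway 2 rose and 0 fell (median 0.07), where 0.527% of all genes rose. DUSP6, a phosphatase that inactivates ERK, was at 28, 28.8 and 28.3 CPM at the high dose and 20.9, 21.1 and 22.4 CPM at the low dose, with no overlap (log2 0.40, SE 0.05, edgeR adjusted p = 3.4e-05). PHLDA1 rose by 0.32 (SE 0.05, edgeR adjusted p = 0.001). Of 18 immediate early genes 3 rose (IER2 at 0.30, JUNB at 0.30 and FOSL1 at 0.24) and 0 fell, and 16 of 18 lay above 0 (median 0.16). The urokinase gene PLAU and its receptor gene PLAUR each rose by 0.30 (edgeR adjusted p = 0.0073 and 0.001), as 2 of 16 matrix proteases and inhibitors. The ID genes, inhibitors of differentiation, gave 1 rise, ID1 at 0.33, among 13 genes of the BMP response. JUNB and ID1 lost their calls without Longan high replicate 1 or 3 or Longan low replicate 1 or 2, and FOSL1 without any 1 library. In the fit of all 60 libraries 0 immediate early genes were called higher, and by DESeq2 5 were.

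Targets of NRF2, which answers oxidative and electrophilic stress, moved both ways: 3 of 26 rose and 1 fell (median 0.07). Among all genes tested 0.527% rose and 0.738% fell. NQO1, a quinone reductase that is also on the list of aryl hydrocarbon receptor targets, was at 184, 180 and 185 CPM against 155, 160 and 158 CPM (log2 0.21, SE 0.04, edgeR adjusted p = 0.0037). TXNRD1, the thioredoxin reductase, rose by 0.20 (SE 0.03, adjusted p = 0.004) and HMOX1, heme oxygenase, by 0.22 (SE 0.05, adjusted p = 0.043). SQSTM1 (p62), the autophagy receptor, was at 442, 422 and 439 CPM against 514, 550 and 548 CPM. It fell by 0.31 (SE 0.04, edgeR adjusted p = 0.0005) with no overlap, and with FLCN (-0.26) and GPNMB (-0.35) it made up the 3 of 29 lysosome and autophagy genes called. The call of HMOX1 was lost without any 1 library but Longan high replicate 2, that of FLCN without Longan high replicate 1 or Longan low replicate 1 or 2, and that of GPNMB without any 1 of the 6. The 3 rises among NRF2 targets were 0 in the fit of all 60 libraries and with only both groups fitted, and 4 by DESeq2.

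FAM13B, which encodes a protein with a RhoGAP domain, gave the strongest call among the falls. Its high dose libraries held 35.3, 36.3 and 35.6 CPM and its low dose libraries 61.8, 59.3 and 54.3 CPM, and the medium dose (57.7, 55.7 and 56.3 CPM) overlapped the low dose. The high dose level was 0.612 of the low dose level (log2 -0.71, SE 0.05, edgeR adjusted p = 2.1e-08). PTPRB, a receptor tyrosine phosphatase known from blood vessels, was at 7.13, 8.15 and 8.73 CPM against 14, 11.4 and 12.4 CPM (log2 -0.65, SE 0.09, edgeR adjusted p = 0.00028). FBXO32 (atrogin-1), a ubiquitin ligase subunit induced by FOXO factors, was at 55.2, 58.7 and 53.5 CPM against 86.3, 70.8 and 78.5 CPM (log2 -0.49, SE 0.07, edgeR adjusted p = 0.00092). Neither gene's doses overlapped, which was a condition for naming the largest falls.

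Of 20 tested insulin and FOXO responsive genes, TXNIP rose and FBXO32 and FOXO3 (log2 -0.23) fell, with a median of -0.13, and 15 of 20 lay below 0. Across all genes 0.527% rose and 0.738% fell. Kinases of the insulin pathway did not pass the test: PIK3CA was at -0.05, PIK3CB at -0.11, PIK3C3 at -0.08 and MTOR at -0.11, with adjusted p from 0.29 to 0.76. The other large falls by the naming rule were FGF14 (-0.51), a channel partner of the fibroblast growth factor family, CHML (-0.48), a Rab escort protein, STX3 (-0.44), a membrane fusion protein, DTWD2 (-0.43), HHAT (-0.43), which attaches palmitate to Hedgehog proteins, SLC5A3 (-0.42), the sodium-coupled myo-inositol transporter, CCN3 (-0.42), a matricellular protein, and UAP1L1 (-0.41). FGF14, DTWD2, HHAT, SLC5A3 and CCN3 each lost the call in 4 of the 6 fits that left out a library. Longan low replicate 1 was such a library for all 5. The others were Longan low replicate 2 for DTWD2, HHAT, SLC5A3 and CCN3, Longan low replicate 3 for FGF14 and CCN3, Longan high replicate 1 for DTWD2, HHAT, SLC5A3 and CCN3, Longan high replicate 2 for FGF14 and HHAT, and Longan high replicate 3 for FGF14, DTWD2 and SLC5A3. FOXO3 lost it without any but Longan high replicate 2.

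The remaining large rises were of genes at low levels. BCYRN1, a brain cytoplasmic RNA of Alu origin, was at 17.4, 15.7 and 29.9 CPM against 10.6, 10.3 and 10.4 CPM (log2 1.02, SE 0.19, edgeR adjusted p = 0.0073), so Longan high replicate 3 stood above its group. Without Longan high replicate 3 the log2 difference of BCYRN1 was 0.67 (edgeR adjusted p = 0.049), and in the fit of all 60 libraries its call was lost (adjusted p = 0.21). Reads from other Alu copies may be counted for BCYRN1, and those of SERPINB3 (log2 0.80, edgeR adjusted p = 0.01), a protease inhibitor, may be shared with its near copy SERPINB4, so both values are uncertain. AKR1B10 (0.50), an aldo-keto reductase, PRR4 (0.50), GNB1L (0.42), RASL11A (0.38), a small GTPase, and SDHAF1 (0.38), an assembly factor of succinate dehydrogenase, also rose. Leaving out Longan low replicate 1 ended the calls of these 5 and of SERPINB3. Those of PRR4, GNB1L, RASL11A and SDHAF1 were also lost without Longan high replicate 1, those of PRR4, GNB1L and SDHAF1 without Longan low replicate 2, those of AKR1B10, RASL11A and SDHAF1 without Longan low replicate 3, those of AKR1B10, PRR4 and SDHAF1 without Longan high replicate 3, and that of AKR1B10 without Longan high replicate 2.

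**Figure D3:**
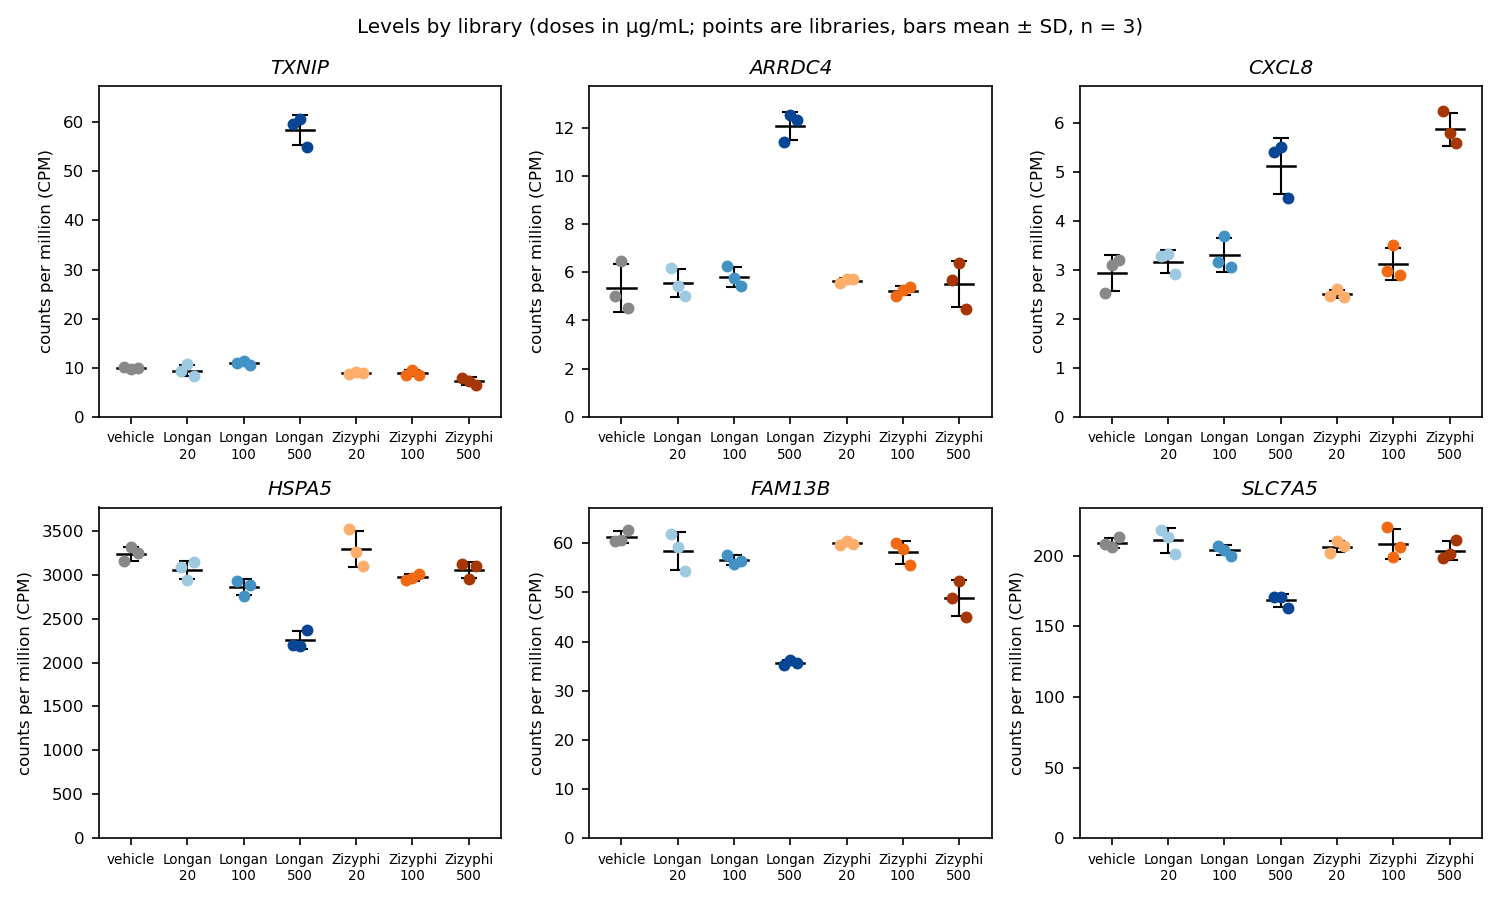
CPM in each library for TXNIP, ARRDC4, CXCL8, HSPA5, FAM13B and SLC7A5, by group, with mean and SD (n = 3). In all 6 genes the Longan 500 µg/mL libraries stand apart from the Longan 20 µg/mL libraries, and the CXCL8 level is higher at 500 µg/mL in both herbs.

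Each list of growth and structural programmes held 1 or 2 called genes, where 1.27% of all genes tested were called. All 24 tested mitosis genes had a difference of 0 or above (median 0.07), of which AURKB (0.22, edgeR adjusted p = 0.016) was called, and 2 of 24 replication genes rose, CDC45 (0.27) and RRM2 (0.14). Among 21 p53 targets 1 was called, the stress cytokine gene GDF15, which was at 2.2, 2 and 2.22 CPM against 3.42, 3.29 and 3.7 CPM (log2 -0.69, SE 0.16, edgeR adjusted p = 0.032). Among 24 extracellular matrix genes THBS2 fell (-0.25, edgeR adjusted p = 0.0021), and 20 of 24 lay below 0 (median -0.06). HSP90AB1 (0.19) was called among 17 heat shock genes and UQCRFS1 (0.20) among 24 nuclear-encoded respiratory chain genes. GDF15 and RRM2 lost the call without any 1 of the 6 libraries, CDC45 without any but Longan low replicate 2, HSP90AB1 without any but Longan high replicate 2, and AURKB and UQCRFS1 without Longan high replicate 1 or Longan low replicate 1 or 2.

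Several further lists had 0 calls by edgeR. They were 25 genes of cholesterol synthesis (median -0.05, 5 at an unadjusted p under 0.05), 14 of fatty acid synthesis (median -0.05, 3 unadjusted) and 10 lipid droplet and PPAR targets (median 0.02, 1 unadjusted). The others were 23 hypoxia targets (-0.01, 5 unadjusted), 17 YAP and TGF-beta targets (-0.03, 6 unadjusted), 17 clock genes (-0.01, 5 unadjusted) and 13 mitochondrially encoded genes (0.14, 1 unadjusted). DESeq2 called 1 gene each in 5 of these lists, LSS, SCD, PLIN3, CCN1 and NR1D1, and 0 in the hypoxia and mitochondrial lists. INSIG1, a sterol sensor partner, was at 123 ± 2.78 against 134 ± 4.09 CPM (SD, n = 3, edgeR adjusted p = 0.14). The 6 tested metallothionein and zinc transport genes were all below 0 (median -0.33), but edgeR called 0, with 3 below 0.05 before adjustment, and by DESeq2 SLC30A1 was called. Their adjusted p-values from edgeR ran from 0.057 for the zinc exporter SLC30A1 to 0.78 for MT2A.

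CLDN4, SYT1 and FAP were the markers of other cell types called by edgeR, where 1.27% of all genes tested were called. Summed over all 10 leukocyte markers listed the level was 173 to 177 CPM at the high dose and 181 to 208 CPM at the low dose, with CD3E and TYROBP at 0 at both doses. The 7 epithelial markers summed to 150 to 185 CPM at the high and 134 to 156 CPM at the low dose, and CLDN4 was called (log2 0.64, edgeR adjusted p = 0.017) while CDH1 and EPCAM were at 0 in the low dose libraries. The 10 neuron markers summed to 236 to 252 against 221 to 240 CPM, with SYT1 called lower (-0.29, edgeR adjusted p = 0.042). DESeq2 called 2 of the 7 tested, SYT1 and TUBB3. TUBB3 had a higher mean at the high dose (126 CPM) than at the low dose (109 CPM). Of the 7 tested neuron markers 1 lay above 0 and 6 below. The mesenchymal sums overlapped (4446 to 4860 against 4519 to 4854 CPM), with FAP called lower (-0.19, edgeR adjusted p = 0.0076), and so did the oligodendrocyte (143 to 147 against 132 to 149 CPM, MAG, MOG, OLIG1 and SOX10 at 0 at both doses) and endothelial sums (44.7 to 47 against 44.6 to 46.7 CPM). The 12 astrocyte markers summed to 8583 to 8856 against 8247 to 8439 CPM, with 0 of the 8 tested called by edgeR or DESeq2 and 2 at an unadjusted p under 0.05. Of these 8 astrocyte markers 3 lay above 0 and 5 below (median log2 difference -0.04). Some sums rest mostly on 1 gene: CD68 had means of 163 CPM at the high and 178 CPM at the low dose in the leukocyte sum. KRT18 (147 and 129 CPM) made up most of the epithelial sum and CNP (137 and 132 CPM) most of the oligodendrocyte sum. VIM (5010 and 4641 CPM) made up most of the astrocyte sum and COL1A1 (3470 and 3547 CPM) most of the mesenchymal sum. What part shifts in these sums have in the results was not tested. FAP and SYT1 lost the call without Longan low replicate 1, CLDN4 without Longan low replicate 1 or 3 or Longan high replicate 1 or 3, and SYT1 also without Longan low replicate 2 or any 1 high dose library.

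The fold change also moved with exon length and base composition. Across 16944 genes, which are not independent replicates, Spearman's rho of the log2 difference was -0.22 with exon length and 0.19 with GC content. Genes called higher had a median exon length of 3628 bases and a GC content of 54%, genes called lower 6939 bases and 46.3%, and all genes 4407 bases and 48.3%. With genes sorted by exon length into 10 bins of near equal size, the median log2 difference in the bin of shortest genes (69 to 1362 bases) was 0.051, and in the bin of longest genes (10046 to 205012 bases) it was -0.061. With length and GC content fitted as offsets in each library, 312 genes were called (137 higher, 175 lower), and 58 of the 63 named calls were kept. TXNIP (2.63), ARRDC4 (1.14), HSPA5 (-0.44) and FAM13B (-0.67) had differences about as large in that fit, and 10 genes of the unfolded protein response fell. The calls of FOSL1, JUNB, GPNMB, SDHAF1 and SLC1A4 were the 5 lost.

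**Figure D4:**
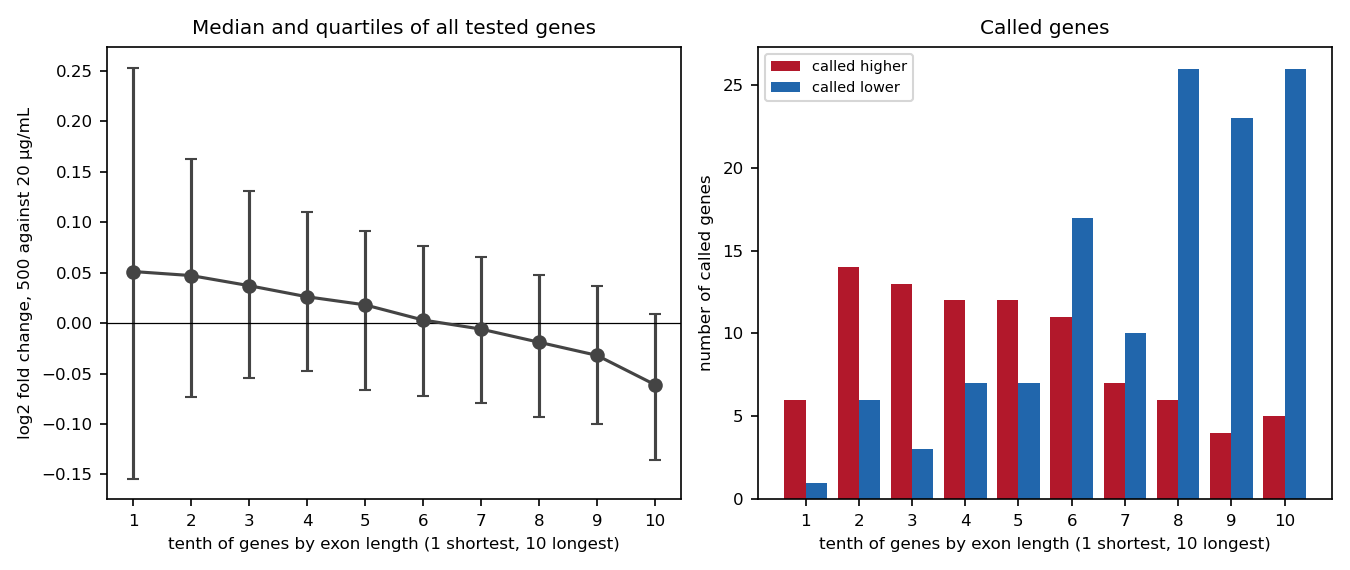
Median and quartiles of the log2 difference, high over low dose, for genes in 10 bins of exon length from shortest to longest. The median runs from 0.051 in the bin of shortest genes to -0.061 in that of the longest.

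The medium dose was not distinguished from the low dose in any gene. At 100 against 20 µg/mL edgeR's quasi-likelihood test called 0 of 17063 genes (0%) with 498 at an unadjusted p under 0.05, and DESeq2 also called 0, whereas 94 were called with no filter on low counts. This comparison shares its low dose libraries with the high against low dose comparison. In the 12 named genes with the largest high dose rises the medium dose differed from the low dose by -0.02 to 0.32 on the log2 scale, and in the 12 with the largest falls by -0.20 to -0.03. The sign was that of the high dose in 11 of the 12 rises and in all 12 falls. TXNIP was at 0.21 against 2.63 at the high dose, BCYRN1 at 0.19 against 1.02, ARRDC4 at 0.08 against 1.13, FAM13B at -0.05 against -0.71 and HSPA5 at -0.10 against -0.44. AKR1B10 (0.29 against 0.50) and PRR4 (0.32 against 0.50) came nearest to their high dose differences.

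Against vehicle the high dose differed in 1068 genes (6.26%), 425 higher (2.49%) and 643 lower (3.77%), and the low dose in 3 (0.0176%), all lower. The 3 were PADI2 (log2 -0.53), EGR1 (-0.80) and SFRP2 (-0.34), and for the immediate early gene EGR1 the mean was 153 CPM in vehicle, 88 at the low and 117 at the high dose. For TXNIP the high dose stood 5.87-fold above vehicle (log2 2.55, SE 0.07, edgeR adjusted p = 6.6e-17) while the low dose was at -0.08 (SE 0.08, adjusted p = 0.99). HSPA5 was at 3236 ± 80.6 CPM in vehicle (SD, n = 3), log2 -0.52 for the high dose (edgeR adjusted p = 3.5e-07) and -0.08 for the low dose (adjusted p = 0.99). Of the unfolded protein response list 14 of 19 were called lower in the high dose against vehicle. Both comparisons share libraries with the comparison of doses, and neither can separate treatment from library set. Calls of the high dose against vehicle numbered 288 without Vehicle replicate 2, 321 without Vehicle replicate 3, 373 without Longan high replicate 1 and 434 without Longan high replicate 3. For the low dose they were 2 without Longan low replicate 1, 1 without Vehicle replicate 1 or Longan low replicate 3 and 0 without Vehicle replicate 2 or 3 or Longan low replicate 2, and DESeq2 called 6.

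Zizyphi Semen was tested at the same doses in libraries of the same set and gave 390 called genes between its high and low dose (2.29%), 174 higher and 216 lower (327 and 236 with length and GC offsets). Of these, 39 were also called for Longan, which is 18.1% of the Longan calls and 10% of the Zizyphi calls. The sign was the same in 35, among them CXCL8, LIF, FAM13B, PHLDA1, NQO1, HMOX1, PDIA4 and THBS2, and opposite in BEGAIN, FBXO32, HERPUD1 and ID1. CXCL8 was at 6.24, 5.79 and 5.58 CPM in the Zizyphi high dose libraries and 2.47, 2.6 and 2.44 CPM in the low dose libraries (log2 1.23), and the difference from Longan was not called (log2 -0.53, SE 0.16, edgeR adjusted p = 0.2). The Zizyphi calls numbered 174 without Zizyphi high replicate 1, 182 without Zizyphi low replicate 2, 208 without Zizyphi high replicate 3 and 250 without Zizyphi low replicate 3.

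A test of the difference between both herbs' dose responses called 109 genes (0.639%), 68 with the higher value in Longan and 41 in Zizyphi, and 30 of the 216 Longan calls (13.9%) were among them. With length and GC offsets the split turned to 61 higher and 71 lower, and without Longan high replicate 3 the count was 64. TXNIP was at 7.97, 7.35 and 6.48 CPM in the Zizyphi high dose libraries and 8.71, 9.23 and 8.89 CPM in its low dose libraries, and the difference of the log2 responses was 2.93 (SE 0.11, edgeR adjusted p = 1.1e-13). ARRDC4 differed by 1.17 (SE 0.16, edgeR adjusted p = 0.00044), with a Zizyphi response of -0.04. Both responses were larger in Longan than in Zizyphi by the test of the difference itself. SAMD11 differed by 1.10 (edgeR adjusted p = 1.1e-07), chiefly through its fall in Zizyphi (-0.96), whereas in Longan it was at 0.13 (adjusted p = 0.3).

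Among the falls, FBXO32 differed most (-0.87, SE 0.10, edgeR adjusted p = 3.4e-05): it fell by 0.49 in Longan and rose by 0.38 in Zizyphi. ANGPTL4, a lipase inhibitor, differed by -0.81 through a rise in Zizyphi (0.81), with a mean of 12.1 CPM at both the high and the low dose of Longan. PTPRB differed by -0.64 and FAM13B by -0.41 (edgeR adjusted p = 0.0098 and 0.0057). Among the unfolded protein response genes the difference was called in HERPUD1 (-0.47), MANF (-0.38) and HSPA5 (-0.33). It was not called in the other 16 tested genes, for example PDIA4 (-0.05, edgeR adjusted p = 0.83). SLC7A5 (-0.30), SLC1A4 (-0.34) and PSAT1 (-0.30) were called among the ATF4 targets together with 2 that did not pass in Longan alone, ATF4 itself and STC2, where Zizyphi was at 0.26 and 0.17. The difference was also called for ID1, at 351, 336 and 399 CPM in the Longan high dose libraries and 225, 200 and 219 CPM in those of Zizyphi (difference of log2 responses 0.82, SE 0.11, edgeR adjusted p = 0.0003). ID1 was called higher in Longan (0.33) and lower in Zizyphi. Of 13 BMP response genes 7 were called lower in Zizyphi and 0 higher (median -0.56), where 1.27% of all genes fell. The difference was called in 5 of the 13, all with the higher value in Longan, against 0.399% of all genes.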

How the data were processed

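Per the submitters' processing notes, the expected counts that the authors deposited were made with RSEM 1.3.3 after Trim Galore 0.6.5, FastQC 0.11.9 and STAR 2.7.3a on GRCh38 (hg38). Which annotation release and strand setting RSEM used is not given in the sources used here. A directional mRNA kit and 100 bp read pairs were used, per the labels' protocols. Of the values 11.02% were not whole, and all were rounded. Symbols matched 56558 of 60675 identifiers, and GENCODE 29 (57055 matched) gave coordinates and exon lengths. RSEM splits reads among similar genes, so near copies share uncertain values.

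Groups came from sample titles. The 21 libraries of 7 groups (vehicle, Longan and Zizyphi at 3 doses, n = 3) were fitted jointly by edgeR's quasi-likelihood method (edgeR 4.0.16 under R 4.3.3), with TMM, edgeR's filter at a minimum count of 10, 17063 genes, 14 residual degrees of freedom and a biological coefficient of variation of 4.76%. Other groups stayed out because earlier text on the series named a Liriopis library that moved call counts. Calls were made at 0.05 after Benjamini-Hochberg adjustment over all genes tested, and every adjusted p is from this fit unless DESeq2 (1.42.0) is named. Levels are TMM-scaled CPM, except the levels and sums of cell type markers, which are CPM without TMM scaling unless libraries are listed singly. Each SE is the size of the log2 difference divided by the square root of edgeR's F statistic, so it follows from the test. Tests were tried on simulated data.

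Named were called genes whose 3 high libraries lay beyond all 3 low libraries with a mean of at least 5 CPM, the 12 largest rises and 12 largest falls with plain symbols, up to 4 members per list with the smallest p, the 3 largest differences from Zizyphi each way, and 14 genes eligible whatever their values. The members, lists, tests and alternatives were chosen with earlier results of these data known.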

Additional observations from a re-analysis of the deposited data

Results flagged for a closer look

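The dose response differed between Longan Arillus and Zizyphi Semen in 109 genes by edgeR's test of the difference. Among the genes named here the log2 response of Longan minus that of Zizyphi was 2.93 for TXNIP, 1.17 for ARRDC4, 1.10 for SAMD11, 0.82 for ID1, 0.70 for RASL11A, 0.48 for JUNB, 0.40 for IER2 and 0.31 for DUSP6. It was -0.87 for FBXO32, -0.81 for ANGPTL4, -0.64 for PTPRB, -0.47 for HERPUD1, -0.43 for UAP1L1, -0.41 for FAM13B, -0.38 for MANF, -0.34 for SLC1A4, -0.33 for HSPA5, -0.31 for SQSTM1, -0.30 for SLC7A5 and -0.30 for PSAT1.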

How the results depend on the processing

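Calls between the high and low dose numbered 216, and 331 by DESeq2, 668 with no filter on low counts, 68 with only both groups fitted, 44 with all 60 libraries and 329 with these less the Liriopis library that stands apart. Leaving out each library gave 67 to 199. No named call reversed under any alternative. Medium against low dose gave 0 calls, 94 with no filter. The 390 Zizyphi calls became 586 with no filter, 133 with only its groups, 120 with all 60 libraries and 174 to 326 with each library left out. The 109 differences between herbs became 334, 62, 40 and 64 to 97 under the same settings, and the call for PTPRB was lost with all 60 libraries. The 1068 calls of the high dose against vehicle became 1621, 479, 150 and 288 (without Vehicle replicate 2) to 1486 (without Vehicle replicate 1). The 3 calls of the low dose against vehicle became 126 with no filter, 1 with all 60 libraries, 6 by DESeq2, 5 with length and GC offsets and a replicate block, and 0 to 2 with each library left out. The cause of these changes was not tested, apart from the fewer libraries or other genes tested. The length and GC offsets were chosen after seeing the data.

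Same-numbered high and low dose libraries showed no clear shared deviation (correlations of deviations -0.061, 0.060 and -0.003). Differently numbered ones gave -0.078 to 0.074. With 3 libraries per group this does not settle whether the numbers pair them. With a replicate block 188 genes were called between the high and low dose, 389 for Zizyphi, 107 for the difference, 925 for the high dose against vehicle, 1 for the low dose against vehicle and 0 for the medium dose. Precision was lower for genes at low levels such as GDF15 and CLDN4 (SE 0.16 and 0.13, against 0.04 for HSPA5). GDF15 lost its call in 6 and CLDN4 in 4 of the 6 fits that left out a library, and the part of depth in this was not tested.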
